A study of Rattus norvegicus with 12 samples.

Results

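Respiratory complex I was followed in the left ventricle of rats through the probe sets that carry the symbols of its nuclear-encoded subunits. On these arrays a transcript is read by a probe set, several short probes that are summarised to 1 value. Members were the probe sets whose single annotated symbol begins with Nduf, then one of the letters a, b, c, s or v, and then a number, together with Ndufab1. The assembly factors named Ndufaf were left out. This gave 39 probe sets for 36 genes, of 31042 probe sets on the array and 14217 named genes. All 39 lay above the filter on dim probe sets, which kept 18626 probe sets and 10244 genes. A gene is represented below by its brightest tested probe set. Ndufs5 and Ndufa10 share their probe sets with a second symbol and were not members.

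Complex I, NADH:ubiquinone oxidoreductase, takes electrons from NADH at a flavin, passes them along a chain of iron-sulphur clusters to ubiquinone and pumps protons out of the mitochondrial matrix. Its core subunits do the chemistry, and many accessory subunits surround them in a matrix arm and a membrane arm. The heart is rich in mitochondria, and its ATP comes mostly from the respiratory chain. The 36 genes comprised 6 core subunits, 9 accessory subunits of the matrix arm, 7 of the proximal and 12 of the distal part of the membrane arm, and Ndufa4 and Ndufa4l2. These last carry the name without being subunits of complex I: Ndufa4 belongs to cytochrome c oxidase, and Ndufa4l2 is its hypoxia-induced relative.

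The animals were 16-month-old female Sprague-Dawley rats, and RNA was hybridised to Affymetrix Rat Genome 230 2.0 arrays. Voluntary exercise was open to the EX rats throughout life, PA rats spent 1 h in a large box 2 times a week, and SED rats never left a standard cage. There were 4 arrays for each of EX, PA and SED. According to the series' design each array pooled 4 animals of 12 in a group, which would fill 3 arrays. Which animals stand behind which array is therefore not settled, and p-values measure the spread between these arrays. Values are deposited log2 values, in which a difference of 1 is a doubling, and the number of arrays limits their precision. In this whole-tissue RNA, fewer cells of a type and less RNA per cell cannot be told apart.

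The tissue matched its label: the 14 measured cardiomyocyte markers, such as Myh6 and Tnnt2, had a mean log2 level of 12.76 to 12.81 in EX, 12.78 to 12.84 in PA and 12.79 to 12.83 in SED. The array SED 1 stood apart: its correlation with the rest averaged 0.964, and that of each other array 0.987 to 0.989. Its 3' minus 5' difference for the Gapdh controls was 1.56 against 0.96 to 1.35 elsewhere. The interquartile range of its values was 3.58 against 3.73 to 4.04. Over all tested genes the mean on SED 1 lay 0.115 below the mean over all arrays. Each result with SED is therefore given with and without that array.

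Promoters are shown for the members that were lowest and highest on SED 1 relative to the other 11 arrays because the comparisons with SED include that array. The choice rests on SED 1 alone, and without it these genes do not stand apart in this order. The differences there were -0.86 for Ndufb8 and -0.80 for Ndufb4 on the low side, and 0.25 for Ndufs8 and 0.23 for Ndufb7 on the high side. Each window runs from 250 bases before to 50 after the start of the gene, 5' to 3', as given by RefSeq for Ndufb8 (GRCr8, chr1:253362887-253363186, minus strand), Ndufb4 (GRCr8, chr11:76568928-76569227, plus strand), Ndufs8 (GRCr8, chr1:210573649-210573948, minus strand) and Ndufb7 (GRCr8, chr19:41477242-41477541, minus strand). Capitals mark matches to the 3 motifs described after the sequences.
Ndufb8: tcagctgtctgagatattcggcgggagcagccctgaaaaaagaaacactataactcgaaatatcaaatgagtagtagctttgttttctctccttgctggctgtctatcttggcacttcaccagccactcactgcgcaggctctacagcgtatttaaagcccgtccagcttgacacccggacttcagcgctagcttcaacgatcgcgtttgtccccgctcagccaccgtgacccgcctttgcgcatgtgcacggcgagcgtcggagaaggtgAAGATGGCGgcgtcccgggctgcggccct
Ndufb4: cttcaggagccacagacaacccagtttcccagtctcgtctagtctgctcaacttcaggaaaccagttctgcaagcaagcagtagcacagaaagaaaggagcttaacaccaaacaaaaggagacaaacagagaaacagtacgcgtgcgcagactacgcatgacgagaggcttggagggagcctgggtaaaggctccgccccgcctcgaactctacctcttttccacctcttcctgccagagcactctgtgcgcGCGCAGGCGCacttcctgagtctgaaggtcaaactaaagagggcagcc
Ndufs8: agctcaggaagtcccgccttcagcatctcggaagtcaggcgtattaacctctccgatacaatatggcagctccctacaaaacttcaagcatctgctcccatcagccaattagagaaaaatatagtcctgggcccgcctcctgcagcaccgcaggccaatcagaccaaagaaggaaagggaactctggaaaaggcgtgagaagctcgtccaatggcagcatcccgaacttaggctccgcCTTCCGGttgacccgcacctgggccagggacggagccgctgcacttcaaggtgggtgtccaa
Ndufb7: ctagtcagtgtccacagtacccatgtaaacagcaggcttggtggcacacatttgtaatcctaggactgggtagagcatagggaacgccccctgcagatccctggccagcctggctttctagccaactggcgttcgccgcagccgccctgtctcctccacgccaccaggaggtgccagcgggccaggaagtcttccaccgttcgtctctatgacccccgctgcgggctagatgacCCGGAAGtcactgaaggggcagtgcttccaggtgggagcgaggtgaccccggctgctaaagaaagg

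The motifs were the cores of the sites of 3 factors known from respiratory chain promoters, searched on both strands and counted separately where they overlap. They were GCGCA, any base, then GCGC for NRF1, CCGGAAG for ETS factors such as GABP, and AANATGGCG for YY1. RefSeq promoters matched 34 of the 36 genes by gene identifier. The NRF1 core was present in 6 of the 34 (17.6%) and in 4.82% of all 27457 genes with a promoter of that length. The ETS core was in 7 (20.6%) against 9.63%, and the YY1 core in 11 (32.4%) against 3.45%. These 27457 genes were not limited to the 10244 tested ones. Among the promoters shown, Ndufb8 held the YY1 core 22 bases after the start, Ndufb4 the NRF1 core 3 bases after it, Ndufs8 the ETS core 12 bases before it and Ndufb7 the ETS core 16 bases before it. A match describes letters only.

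SED 1 held the lowest complex I values and PA 1 the highest. On 11 of the 12 arrays the mean of the 36 genes, each taken relative to its own mean over all arrays, lay between -0.10 and 0.14. The values were -0.095, -0.032, 0.015 and 0.030 on EX 1 to 4, 0.138, 0.029, -0.002 and 0.038 on PA 1 to 4, and 0.083, -0.042 and 0.066 on SED 2 to 4. On SED 1 it was -0.228. The SD over genes on SED 1 was 0.244, against 0.0474 to 0.101 on the other arrays. Over all tested genes the SD was likewise wider there, at 0.551 against 0.208 to 0.256. Over all 12 arrays a gene spanned from 0.11 (Ndufa4) to 1.04 (Ndufb8) log2 units, and without SED 1 from 0.09 (Ndufa4 and Ndufv2) to 0.55 (Ndufs8). By place in the complex, the mean on SED 1 was -0.284 in the distal and -0.275 in the proximal membrane arm, -0.232 in the matrix arm and -0.135 in the core.

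**Figure D1:**
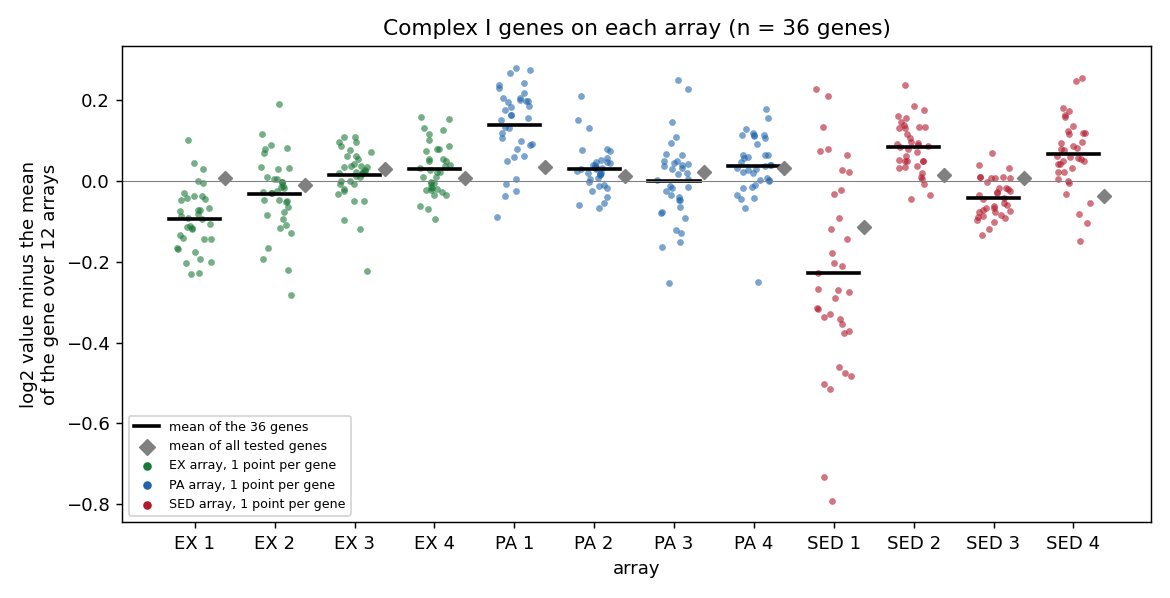
Log2 value of each of the 36 complex I genes minus its mean over the 12 arrays, by array. Points are genes, black bars their mean and grey diamonds the mean of all tested genes. SED 1 has the lowest mean (-0.228) and the widest scatter, and PA 1 the highest mean (0.138). The scatter of all tested genes, not drawn, was also widest on SED 1.

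SED 1 was the single lowest array for 22 of the 36 genes (61.1%), beside 33.6% of all tested genes. It lay below the mean of the other 11 arrays in 28 genes and above it in 8. Of the genes named as subunits, 7 were lower there by over 0.5. These were Ndufb8, Ndufb4, Ndufa1, Ndufab1, Ndufb10, Ndufa12 and Ndufa5, accessory subunits of both arms. Ndufs4, Ndufs7, Ndufc2, Ndufs6, Ndufb1, Ndufb7 and Ndufs8 were on the higher side of that mean on SED 1, by 0.02 to 0.25, as was Ndufa4, by 0.07. Of all tested genes, the shares on either side of that mean or lower by over 0.5 were not computed. Whether these counts are particular to complex I is therefore not known. On SED 1 all tested genes averaged -0.115 relative to the mean over all arrays, with an SD of 0.551. PA 1 was the single highest array for 17 genes (47.2%), beside 8.33% of all tested genes.

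Ndufb8, an accessory subunit of the distal membrane arm, read 9.32, 9.48, 9.52 and 9.49 in EX, 9.64, 9.45, 9.66 and 9.44 in PA, and 8.62, 9.43, 9.42 and 9.46 in SED. The low value belongs to SED 1 alone, and the other 3 SED arrays lay within the range of EX. Ndufb4, of the same arm, read 12.09, 12.05, 12.21 and 12.25 in EX, 12.35, 12.14, 12.15 and 12.24 in PA, and 11.40, 12.25, 12.09 and 12.38 in SED. SED 4 was the highest of all 12 arrays for this gene and SED 1 the lowest. Ndufv2, a core subunit that carries an iron-sulphur cluster, read 12.10 to 12.18 in EX, 12.16 to 12.19 in PA and 12.17 to 12.18 on SED 2 to 4, against 11.79 on SED 1. Ndufa1, a small membrane subunit needed for assembly, read 11.33 to 11.52 in EX, 11.50 to 11.68 in PA, 11.47 to 11.75 on SED 2 to 4 and 10.98 on SED 1.

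Ndufs8 and Ndufs7, the core subunits that carry the iron-sulphur clusters nearest ubiquinone, were not low on SED 1. Ndufs8 read 10.35, 10.26, 10.51 and 10.54 in EX, 10.81, 10.60, 10.29 and 10.59 in PA, and 10.77, 10.64, 10.48 and 10.68 in SED, where SED 1 was the highest. Ndufs7 read 11.13, 11.07, 11.30 and 11.17 in EX, 11.46, 11.31, 11.20 and 11.22 in PA, and 11.29, 11.45, 11.19 and 11.38 in SED. Ndufb7, a subunit on the intermembrane-space side, read 12.15 on SED 1 and 11.69 to 12.13 on the other arrays. The part of RNA quality or of the narrower value range of SED 1 in these differences was not tested.

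**Figure D2:**
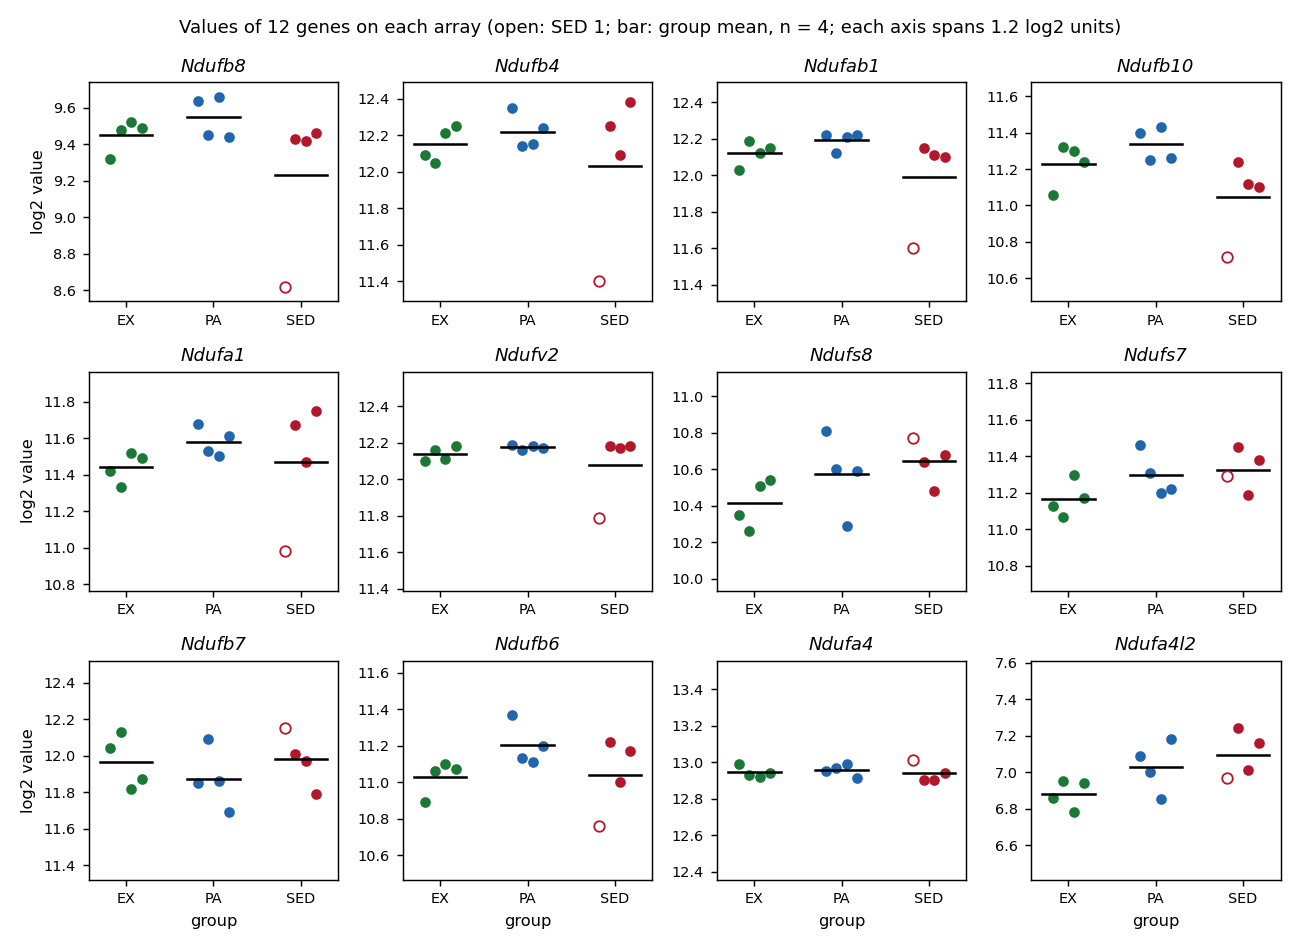
Log2 values of 12 complex I genes on each array by group (EX, PA, SED), with SED 1 as an open circle and bars for group means (n = 4). SED 1 is far below the rest for Ndufb8 (8.62), Ndufb4 (11.40), Ndufab1 (11.60) and Ndufv2 (11.79), and not for Ndufs8 (10.77) or Ndufb7 (12.15).

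Lifelong voluntary exercise against the standard cage gave no complex I probe set past an adjusted p of 0.05 by limma (0 of 39, beside 0% of all probe sets). Means were higher in EX for 19 of the 36 genes and lower for 17, beside 57% of all tested genes higher and 42.7% lower. No gene had every EX array above every SED array (0 of 36, beside 3.45%), and 1 had every EX array below (Ndufa4l2, beside 3.31%). The median difference was 0.0063, beside 0.033 over all tested genes. Its sign depended on scaling: it was -0.013 after quantile normalization, with 17 genes higher beside 45.6% of all genes, -0.014 after centring of the array medians and -0.021 after cyclic loess. By unadjusted limma p under 0.05, 1 of the 39 probe sets counted (2.56%), beside 15.6% of all probe sets. Without SED 1, means were higher in EX for 10 genes and lower for 26, beside 53.6% and 46.4% of all genes, with a median of -0.045 beside 0.014. Leukocyte markers had a lower mean in EX than in SED for 15 of 17 genes with a median difference of -0.23. Without SED 1 this held for 16 of 16 with a median of -0.44. Cardiomyocyte markers were lower in EX for 11 of 14 (median -0.020), and without SED 1 for 12 of 14 (median -0.035). Fibroblast and matrix markers were higher in EX for 6 of 8 with and without SED 1. The part of these cells in the complex I values was not tested. Over all settings tried, the count of complex I probe sets past the threshold was 0.

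Genes with the smallest p in EX against SED were led by Ndufa4l2, described further on, and the core subunits Ndufs8 and Ndufs7. Ndufs8 averaged 10.42 ± 0.13 in EX and 10.64 ± 0.12 in SED (SD, n = 4), so EX was at -0.23 ± 0.12 (SE) relative to SED (adjusted limma p 0.391). Without SED 1 it was -0.19 ± 0.12. For Ndufs7 the means were 11.17 ± 0.10 and 11.33 ± 0.11, a difference of -0.16 ± 0.10 (adjusted limma p 0.448), and -0.17 ± 0.10 without SED 1. The EX and SED arrays overlapped in both genes.

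Ndufc1, a small membrane subunit, differed the other way, by 0.18 ± 0.11 (SE, adjusted limma p 0.456) with EX arrays at 11.73, 11.72, 11.84 and 11.89 and SED arrays at 11.36, 11.81, 11.66 and 11.65. Without SED 1 the difference was 0.088 ± 0.090. Ndufb10, at the intermembrane-space face of the membrane arm, differed by 0.19 ± 0.12 (adjusted limma p 0.475), and by 0.077 ± 0.092 without SED 1. Both differences thus shrank to less than their standard error. Ndufa1 went from -0.028 with all arrays to -0.19 ± 0.093 (SE) without SED 1 (adjusted limma p 0.396).

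The twice-weekly activity group stood above SED in most members with all arrays, and in 16 of 36 without SED 1. Means were higher in PA for 28 of the 36 genes and lower for 8, beside 59.9% of all tested genes higher and 39.8% lower. The median difference was 0.093, beside 0.048 over all tested genes. After quantile normalization it was 0.062, with 24 genes higher beside 47.5% of all genes. By limma 0 of 39 probe sets passed an adjusted p of 0.05, beside 0% of all probe sets, and 1 had an unadjusted p under 0.05 (2.56%, beside 15.2%). Without SED 1 the split was 16 higher and 20 lower, beside 59.2% and 40.7% of all genes, and the median was -0.0058 beside 0.032.

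Ndufb10 had the smallest p, with PA arrays at 11.40, 11.25, 11.43 and 11.26 and SED arrays at 10.72, 11.24, 11.12 and 11.10. Every PA array was above every SED array, by 0.01 at the nearest, and it was the 1 gene of 36 with PA higher and no overlap (beside 4.02% of all tested genes); 0 lay wholly below (beside 2.87%). The means were 11.34 ± 0.09 and 11.05 ± 0.23 (SD, n = 4), and PA minus SED was 0.29 ± 0.12 (SE, 95% interval 0.03 to 0.55, adjusted limma p 0.281). Without SED 1 it was 0.18 ± 0.092 (interval -0.02 to 0.38, adjusted limma p 0.451).

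Ndufs1, the core subunit that holds several iron-sulphur clusters near the NADH site, read 11.79, 11.94, 12.02 and 11.92 in EX, 11.94 (PA 2) to 12.14 (PA 1) in PA and 11.66, 11.90, 11.88 and 11.94 in SED. PA 2 was level with SED 4, so the groups just met. The PA minus SED difference was 0.20 ± 0.09 (SE, adjusted limma p 0.338), and 0.14 ± 0.084 without SED 1. Ndufb8 differed by 0.32 ± 0.17 and without SED 1 by 0.11 ± 0.088. For Ndufa8, on the intermembrane-space side, the values were 0.20 ± 0.11 and 0.11 ± 0.093. Ndufab1, the mitochondrial acyl carrier protein, differed by 0.20 ± 0.12 and without SED 1 by 0.073 ± 0.074.

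Ndufab1 read 12.03, 12.19, 12.12 and 12.15 in EX, 12.22, 12.12, 12.21 and 12.22 in PA and 11.60, 12.15, 12.11 and 12.10 in SED. Apart from SED 1 the 11 arrays spanned 0.19. Ndufb4 changed sign, from 0.19 to -0.020, as did Ndufa5 of the matrix arm, from 0.11 to -0.025, and Ndufa12, from 0.10 to -0.036. In 12 genes in all the PA minus SED sign differed between the fits with and without SED 1.

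**Figure D3:**
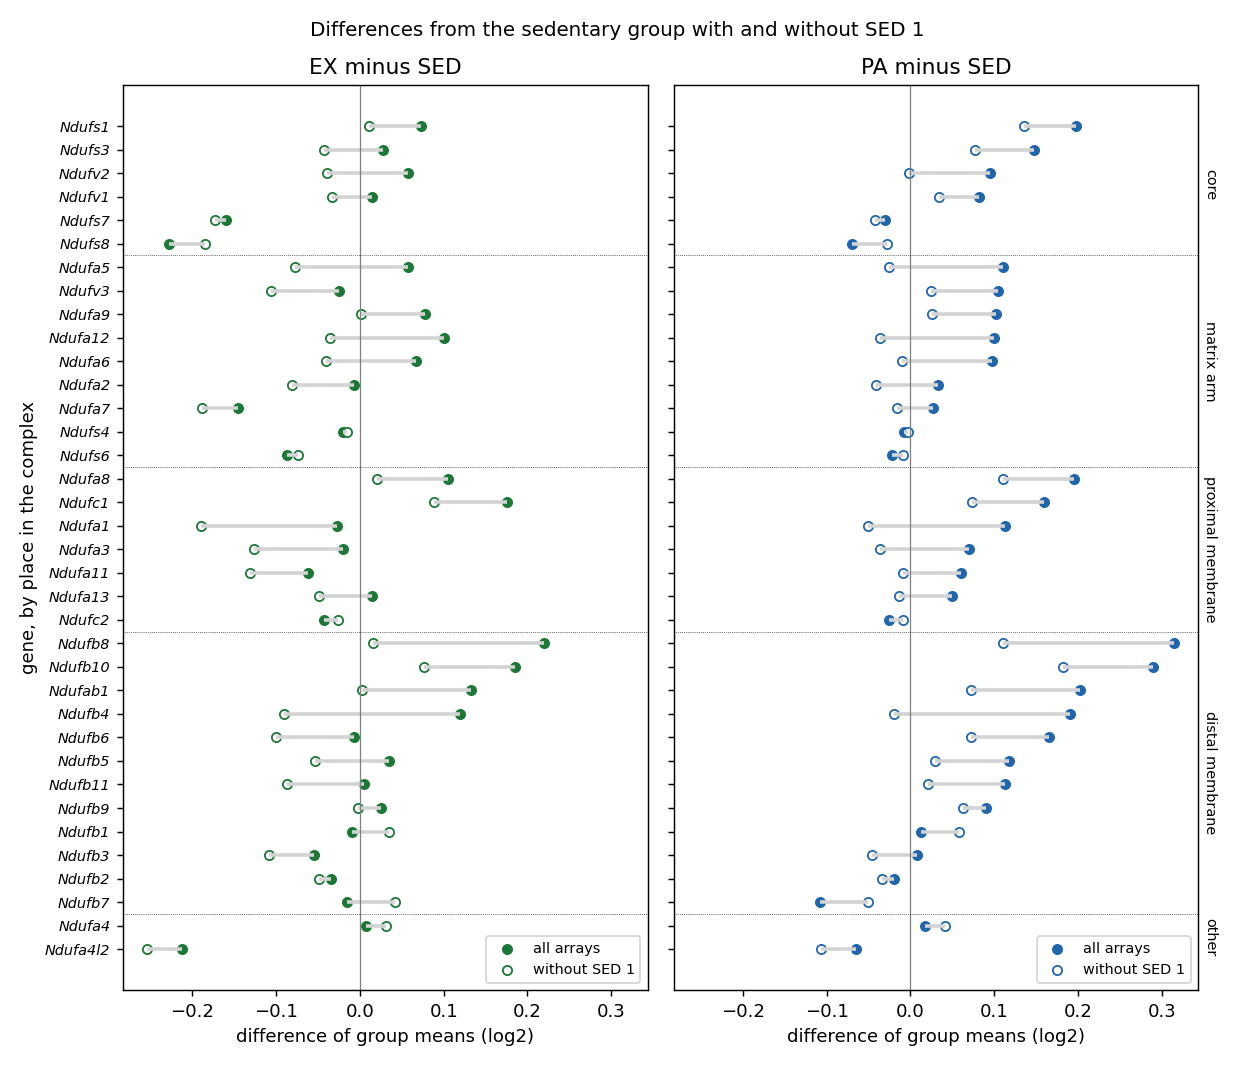
Difference of group means (log2) for the 36 genes, EX minus SED on the left and PA minus SED on the right, with all arrays (filled) and without SED 1 (open), grouped by place in the complex. Most open points lie to the left of the filled ones; without SED 1 the counts above 0 are 10 of 36 for EX and 16 of 36 for PA.

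Between the active groups, which do not involve SED, EX stood a little below PA in nearly every gene by its brightest probe set. Related lists leaned lower in EX too, with 4 of 4 genes of complex II and 24 of 32 of complexes III, IV and ATP synthase. Assembly factors were lower for 12 of 16. Regulators of respiratory chain genes were lower for 9 of 15 (60%), near the 55.3% of all tested genes. Marker lists outside the respiratory chain were lower for 11 of 14 (cardiomyocyte), 12 of 17 (leukocyte), 5 of 7 (atrial) and 4 of 7 (endothelial). The counts were 3 of 8 for fibroblast and matrix, 3 of 4 for adipocyte, 2 of 3 for blood cell and 1 of 3 for skeletal muscle markers. Means were lower in EX for 33 of the 36 genes, higher for 2 and equal for 1, beside 55.3% of all tested genes lower and 44.3% higher. The differences ran from -0.17 to 0.093 with a median of -0.069, beside -0.018 over all tested genes. No single gene passed by limma (0 of 39 probe sets adjusted, beside 0%, and 0 unadjusted under 0.05, beside 2.87%), and the smallest adjusted p was 1. The 95% intervals reached 0.224 to either side in the median gene, wider than any of these differences. The model takes its spread from all 3 groups, SED 1 included: the SE of Ndufb8 in EX minus PA was 0.169 with all arrays and 0.082 without SED 1. Without SED 1 the median gene's interval reached 0.181 to either side, and 0 of 36 intervals left out 0. Then 2 of 39 probe sets, both dimmer ones, had an unadjusted limma p under 0.05 (5.13%, beside 5.21%), with a smallest adjusted p of 0.912. The dimmer probe sets did not share a direction: EX minus PA was -0.28 for Ndufa7, 0.22 for Ndufa9 and 0.25 for Ndufv3.

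EX 1 was the lowest of the EX arrays in 23 of the 36 genes (63.9%, beside 28.6% of all genes), and PA 1 the highest of the PA arrays in 24 (66.7%, beside 24.2%). The 3' minus 5' difference of the Gapdh controls was 1.35 on EX 1, the highest after SED 1, and 0.96 on PA 1, the lowest array. For the actin controls it was 1.63 on EX 1 and 1.48 on PA 1, within the range of the other arrays. The part of RNA quality in EX minus PA was not tested. Without EX 1 the count with a higher EX mean was 6 and the median -0.045. Without PA 1 these were 5 and -0.036, and without both arrays, a choice made after seeing the data, 9 and -0.022. Leaving out EX 2 or PA 3 gave 4 and 5 genes higher in EX. Quantile normalization gave 8 genes higher in EX and a median of -0.048, and cyclic loess 6 and -0.052.

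**Figure D4:**
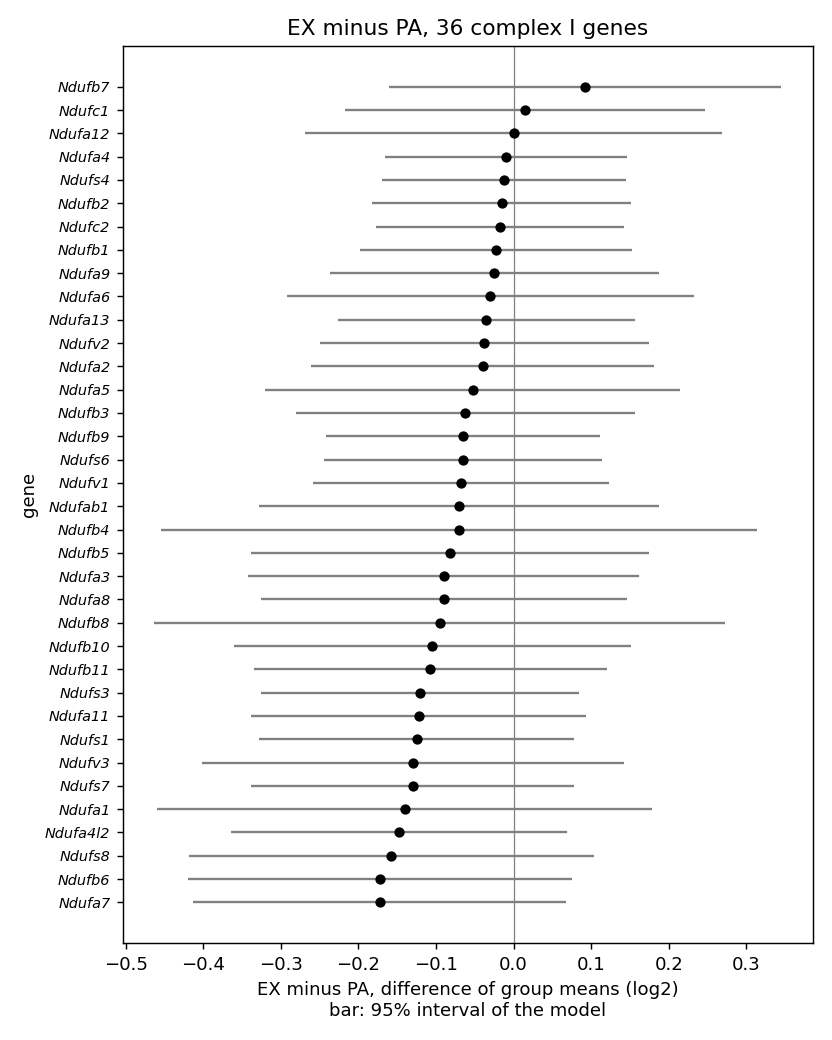
EX minus PA difference of group means (log2, points) with 95% intervals (bars) for the 36 genes, sorted by size. Points for 33 genes lie below 0 and every interval includes 0.

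Ndufa7 had the smallest p among the representative probe sets of EX against PA, at 11.51, 11.52, 11.69 and 11.82 in EX and 11.94, 11.77, 11.65 and 11.87 in PA, a difference of -0.17 ± 0.11 (SE). It is an accessory subunit of the matrix arm. Ndufb6, of the distal membrane arm, read 10.89, 11.06, 11.10 and 11.07 in EX and 11.37, 11.13, 11.11 and 11.20 in PA, also -0.17 ± 0.11. It was the 1 gene of 36 with every EX array under every PA array (beside 1.69% of all tested genes), by 0.01 at the nearest, and 0 lay wholly above (beside 1.04%). The core subunits Ndufs8, Ndufs7 and Ndufs1 differed by -0.16 ± 0.12, -0.13 ± 0.10 and -0.13 ± 0.09, and all their adjusted limma p-values were 1.

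The members were also described by their place in the complex. Core subunits had a median EX minus PA difference of -0.12 with 6 of 6 lower, the matrix arm -0.040 with 8 of 9, the proximal membrane arm -0.090 with 6 of 7 and the distal membrane arm -0.070 with 11 of 12. Over all tested genes the median was -0.018, with 55.3% lower. Against SED without SED 1, EX was lower in 5 of 6 core subunits, 8 of 9 of the matrix arm, 5 of 7 of the proximal and 7 of 12 of the distal membrane arm. The share over all tested genes was 46.4%. PA was then higher in 3 of 6, 2 of 9, 2 of 7 and 8 of 12, beside 59.2% of all tested genes. Differences between the arms were not tested.

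Of the other core subunits, Ndufv1, which binds NADH and the flavin, averaged 11.99 ± 0.08 in EX, 12.06 ± 0.07 in PA and 11.98 ± 0.12 in SED (SD, n = 4). Ndufs3 averaged 11.72 ± 0.10, 11.84 ± 0.07 and 11.69 ± 0.14, with SED 1 at 11.48 and the other SED arrays at 11.73 to 11.78. Some accessory subunits varied little over the arrays. Ndufs4, which stabilises the NADH-oxidising module, spanned 10.13 to 10.26 over all 12 arrays. Ndufc2 spanned 12.45 to 12.61, and Ndufb2 spanned 11.27 to 11.47.

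Both genes that carry the name without being subunits behaved differently from each other. Ndufa4 read 12.99, 12.93, 12.92 and 12.94 in EX, 12.95, 12.97, 12.99 and 12.91 in PA and 13.01, 12.90, 12.90 and 12.94 in SED, with differences of 0.0075 ± 0.072 (EX minus SED) and 0.018 ± 0.072 (PA minus SED), and 0.032 and 0.042 without SED 1. Ndufa4l2 read 6.86, 6.95, 6.78 and 6.94 in EX, 6.85 (PA 3) to 7.18 (PA 4) in PA, and 6.97, 7.24, 7.01 and 7.16 in SED. Every EX array was under every SED array, by 0.02 at the nearest. The difference was -0.21 ± 0.10 (SE, 95% interval -0.43 to 0.004, adjusted limma p 0.328), and -0.25 ± 0.10 without SED 1 (adjusted limma p 0.286). After quantile normalization it was -0.34. EX minus PA was -0.15 ± 0.10.

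For 3 genes a dimmer probe set was measured as well. The dimmer one of Ndufa9, a subunit at the junction of the arms, was the member with the smallest p of all in EX against SED. It read 9.47, 9.15, 9.21 and 9.44 in EX, 9.07, 9.18, 9.04 and 9.11 in PA and 9.10, 8.93, 8.76 and 9.01 in SED, with every EX array above every SED array. The difference was 0.37 ± 0.10 (SE) with an unadjusted p of 0.0043 and an adjusted one of 0.15 by limma, and 0.42 ± 0.10 without SED 1 (adjusted limma p 0.154). The brighter probe set of Ndufa9 differed by 0.078 ± 0.097 and by 0.0008 without SED 1, so the probe sets of this gene read differently.

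Ndufv3, an accessory subunit of the NADH-oxidising module, gave -0.13 in EX minus PA with its brighter probe set and 0.25 ± 0.16 (SE) with its dimmer one. The dimmer one read 7.32 and 7.37 on EX 1 and EX 2 and 6.91 and 6.83 on EX 3 and EX 4, so the EX arrays were split. Probe sets of Ndufa7 went the same way, at -0.17 and -0.28 in EX minus PA. Without SED 1 the probe sets with an unadjusted limma p under 0.05 in EX against SED were 2 of 39 (5.13%, beside 14% of all probe sets), those of Ndufa4l2 and the dimmer one of Ndufa9. None passed the adjusted threshold, beside 0.0107% of all probe sets. In PA against SED without SED 1 the count was 0, beside 12.2%, with 0% of all probe sets past the adjusted threshold.

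Genes that build or run alongside complex I were low on SED 1 too, as were several marker lists. All tested genes averaged -0.115 there relative to the mean over all arrays. Blood cell markers lay at -0.71, leukocyte at -0.39, fibroblast and matrix at -0.32, atrial at -0.31 and skeletal muscle markers at -0.15. Endothelial markers lay at 0.17 and adipocyte markers at 0.16. Relative to the mean over all arrays, SED 1 lay at -0.34 for 16 assembly factors of complex I, at -0.22 for the 4 genes of complex II, at -0.17 for 32 genes of complexes III, IV and ATP synthase and at -0.25 for 15 regulators of respiratory chain genes, while the cardiomyocyte markers lay at 0.024. By limma 0 of these genes passed in any comparison; with an unadjusted p under 0.05 there were 2 assembly factors and 1 regulator in EX against SED, 1 and 2 in PA against SED, and 0 and 1 in EX against PA. Over all tested genes the shares at that p were 12.9%, 12.5% and 2.53%. Without SED 1, 12 of 16 assembly factors and 4 of 4 complex II genes averaged above SED in PA, and 7 of 16 and 3 of 4 did in EX. The regulators did so in 12 of 15 in PA and 10 of 15 in EX, and the genes of complexes III, IV and ATP synthase in 14 of 32 in both, with medians of -0.0033 in PA and -0.013 in EX. Over all tested genes the shares above SED were then 59.2% in PA and 53.6% in EX.

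Among assembly factors, Nubpl, which delivers iron-sulphur clusters to the complex, differed by 0.39 ± 0.15 (SE) in EX against SED and 0.40 ± 0.15 in PA against SED, and without SED 1 by 0.48 ± 0.15 and 0.49 ± 0.15. Ndufaf7, a mitochondrial methyltransferase, differed by 0.31 ± 0.12 and 0.26 ± 0.12, and without SED 1 by 0.31 ± 0.13 and 0.27 ± 0.13. Among the regulators, Gabpa, the DNA-binding subunit of the factor whose core motif was searched above, differed by 0.34 ± 0.13 and 0.30 ± 0.13, and without SED 1 by 0.30 ± 0.14 and 0.26 ± 0.14. Adjusted limma p-values of these 3 genes ran from 0.234 to 0.337 with all arrays and from 0.189 to 0.459 without SED 1.

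The arrays also differed in markers of other cell types. Over 17 of 18 leukocyte markers measured, the mean log2 level was 7.20 to 7.51 in EX, 7.28 to 7.72 in PA and 7.06 to 8.33 in SED, with SED 1 the lowest and SED 3 the highest array. For 8 of 8 fibroblast and matrix markers it was 9.62 to 9.87, 9.55 to 9.93 and 9.39 to 9.85, again with SED 1 the lowest, and PA 1 the highest. The 3 blood cell markers of 8 above the filter were at 7.59 on SED 1 and 8.11 to 8.87 on the other arrays. The 7 atrial markers were at 8.61 on SED 1 and 8.36 to 9.68 elsewhere, and the 7 endothelial markers at 9.88, the highest array, against 9.58 to 9.83. The 4 adipocyte markers of 8 above the filter were at 8.71 on SED 1 and 8.33 to 8.92 elsewhere, and the 3 skeletal muscle markers of 8 at 9.26 and 9.18 to 9.67. The part of these cells in the complex I values was not tested.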

How the data were processed

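Left ventricular RNA was measured on 12 arrays. The authors deposited 1 table of log2 values per probe set, and MAS5 and RMA both stand in the submitters' processing notes; since the notes assign neither, scaling and background correction are not settled. Values were used as deposited. The 57 control rows were left out. Of the other rows 20826 had 1 gene symbol, 436 several and 9780 none listed. Tests were run on the brightest 60% of probe sets (mean log2 of at least 4.94).

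Groups came from the sample titles. A model of 3 group means was fitted to the 12 arrays (limma 3.58.1, R 4.3.3, leaving 9 residual degrees of freedom), with moderated two-sided tests, Benjamini-Hochberg over all tested probe sets, threshold 0.05, with a moderated F test over the groups. No complex I probe set passed that F test at 0.05. Fits were tested on simulated data. Members and lists were chosen with earlier results of these data known, so lists are described by counts and medians. Values are given for the core subunits, the 5 smallest p in each comparison, the 3 smallest without SED 1 in each comparison with SED, the non-subunits and genes with probe sets of opposite sign more than 0.3 apart; genes described for their values on SED 1 or for a narrow range, and Ndufb4, Ndufb7, Ndufa5, Ndufa12, Ndufs4, Ndufc2, Ndufb2 and the probe sets of Ndufa9, were chosen after their values were seen. Alternatives were quantile normalization, median centring, cyclic loess, other filters, an offset of 32, trend and robust variances, array weights, fits of 2 groups, the replicate block, averaged probe sets, a threshold of 0.1 and leaving out arrays. Same-numbered arrays did not deviate together, so the numbers were not taken as pairs. Figures were drawn with matplotlib 3.10.9.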

Additional observations from a re-analysis of the deposited data

Results flagged for a closer look

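Among 54 groups of 4 values examined for the genes given in full and for the mean of the 36 genes, 5 values lay apart from the rest of their group by a gap that took up more of its range than Dixon's 95% critical value for 4 samples. Chance gives about 1 in 20 where groups are independent and chosen beforehand. Many of these genes were chosen by their p in these data, and they share the same arrays. The 5 values are therefore not set against that rate. Of the 5, 4 were on SED 1: Ndufab1 at 11.60 against 12.10 to 12.15 on the other SED arrays, Ndufb8 at 8.62 against 9.42 to 9.46, Ndufs3 at 11.48 against 11.73 to 11.78, and Ndufv2 at 11.79 against 12.17 to 12.18. The other was Ndufab1 on PA 2, at 12.12 against 12.21 to 12.22.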

How the results depend on the processing

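In all settings run, 0 complex I probe sets passed the threshold in each comparison and over the 3 groups. With array weights the counts with a higher mean were 9 (EX against SED), 18 (PA against SED) and 3 (EX against PA), and 8, 1 and 1 probe sets of the whole array passed. Without weights and at a threshold of 0.1, 4 probe sets of the whole array passed in EX against SED. With SED 1 and SED 3 left out together, 6 genes were higher in EX and 11 in PA than in SED, the PA median was -0.024, and 2 probe sets of the array passed in EX against SED. With EX 1 and PA 1 left out together 9 genes were higher in EX than in PA. For EX against PA the count was 8 after quantile normalization, 6 after cyclic loess and 4 with averaged probe sets.

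Leaving out 1 array at a time, the genes higher in EX than SED were 10 (without SED 1) to 24, higher in PA than SED 16 (without SED 1) to 31, and higher in EX than PA 1 to 6. The medians ran from -0.045 to 0.049, from -0.0058 (without SED 1) to 0.13 and from -0.089 to -0.036. Of all probe sets 0 to 2 passed in EX against SED, with 2 without SED 1 and 1 without EX 2. The replicate block left the medians at 0.0063, 0.093 and -0.069 and 0 complex I calls; correlations of same-numbered arrays ran from -0.208 to 0.134, and 2 of 12 arrays matched their own number best. SED 1 stayed lowest under each normalization, with the mean of the 36 genes at -0.168 to -0.224. Precision rests on 4 arrays a group: intervals of single genes reached 0.156 to 0.384 either side.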
